A study of Arabidopsis thaliana with 40 samples.

Results

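The 10 genes described here encode the enzymes that make flavonols in Arabidopsis thaliana and the MYB transcription factors that switch them on. They are CHS (AT5G13930), CHI (AT3G55120), F3H (AT3G51240), F3'H (AT5G07990), FLS1 (AT5G08640), UGT78D1 (AT1G30530), UGT78D2 (AT5G17050), MYB11 (AT3G62610), MYB12 (AT2G47460) and MYB111 (AT5G49330). They were chosen by locus code with no cutoff on a measured value, although earlier results of these data were known at the time. All 10 were found among the 27826 genes of the deposited table.

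Flavonols are phenolic compounds that accumulate in the outer cell layers of leaves, absorb ultraviolet light and can act as antioxidants. Chalcone synthase (CHS), chalcone isomerase (CHI) and flavanone 3-hydroxylase (F3H) build the common skeleton, flavonoid 3'-hydroxylase (F3'H) adds a hydroxyl group that leads to quercetin, and flavonol synthase (FLS1) makes the flavonol itself. The glycosyltransferases UGT78D1 and UGT78D2 then attach rhamnose or glucose, and the related factors MYB11, MYB12 and MYB111 are known activators of CHS, CHI, F3H and FLS1 in seedlings.

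Transcripts were measured on 40 1-colour Affymetrix arrays with RNA of whole shoots, which the design text calls leaf material, from soil-grown plants 4 weeks old in days of 8 h light and 16 h darkness. The 10 groups hold 4 biological replicates each, per the labels. Mutant lines named 2cysprx, cyp20-3, oastlB and serat2;1 were set beside wild type (WT), and every genotype was sampled after 6 h of high light (HL, 800 µmol quanta m-2 s-1) and in normal light (NL, 80 µmol quanta m-2 s-1). By their names and the series title, the lines are defective in chloroplast proteins: the thiol peroxidase 2-Cys peroxiredoxin, the cyclophilin CYP20-3, and the cysteine synthase partners O-acetylserine(thiol)lyase B and serine acetyltransferase SERAT2;1. The sources used here do not state the accession, the alleles or the number of independent lines.

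Values are log2 intensities made by RMA (robust multi-array average, which corrects background, equalises the distribution of values between arrays and summarises probes), so a gene's level is comparable between arrays but not with that of another gene. Differences are HL minus NL, or line minus WT, with their standard error (SE), and a gene counts as called at an adjusted p under 0.05 in a limma model over all genes and arrays. The targeted transcripts were lower than in WT in the lines named for them, in HL by -4.65 for 2CPA, -2.33 for 2CPB, -4.04 for CYP20-3 and -4.83 for OASB, and in NL by -5.39, -2.38, -4.10 and -4.51. SERAT2;1 itself was not, at 6.81 ± 0.16 in serat2;1 HL and 6.34 ± 0.08 in WT HL, and at 6.38 ± 0.20 in serat2;1 NL and 6.36 ± 0.22 in WT NL (SD, n = 4 each), so the name serat2;1 refers only to the label of those arrays. On 2cysprx HL replicate 2 the targeted gene 2CPA read 9.0, while the other 3 arrays of that group read 5.13 to 5.78. This array had the highest reading of its group for 7 of the 10 genes, as had cyp20-3 HL replicate 2 and oastlB HL replicate 4 in theirs. Because of the 2CPA reading, results that turn on 2cysprx HL replicate 2 are also given without it, as the doubtful array. Without it, 2CPA and 2CPB differed from WT HL by -5.55 and -2.56. The means of the 4 green leaf markers lay between 11.9 and 12.1 on all arrays, and those of 4 epidermis markers between 8.34 and 8.91. The means of the root, floral and seed marker lists stayed between 1.99 and 2.84.

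**Figure D1:**
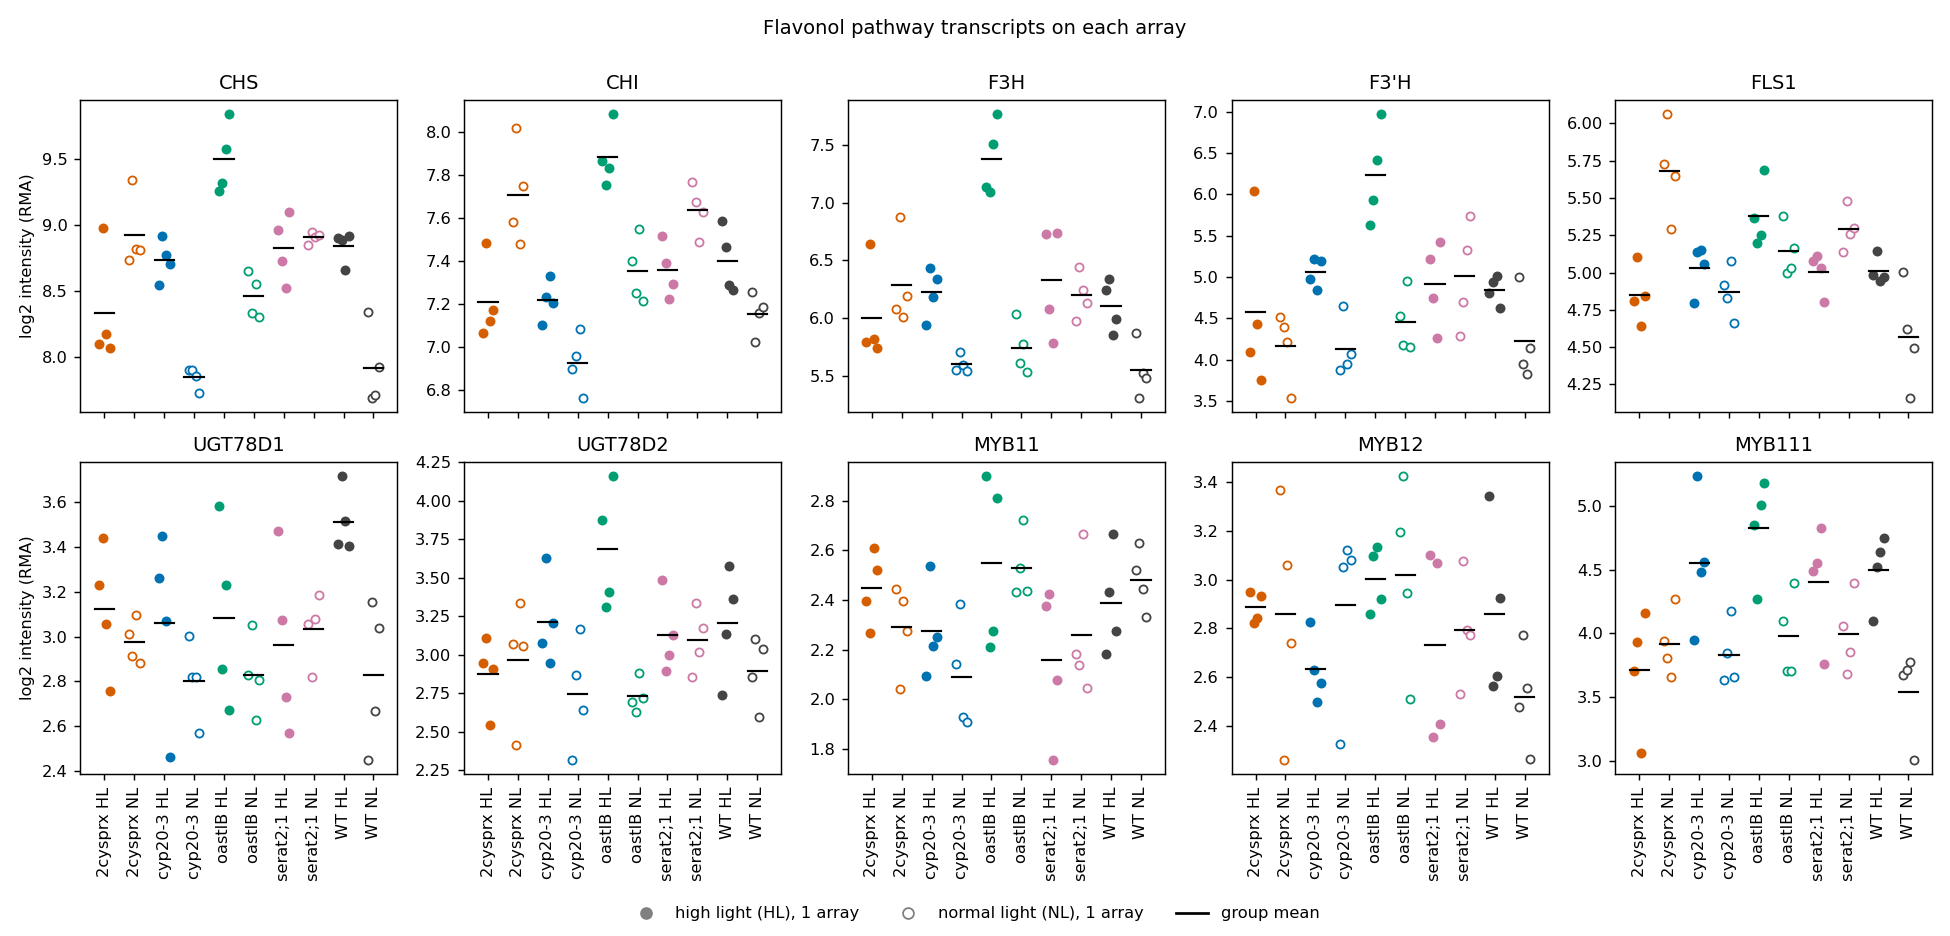
Each point is the log2 intensity (RMA) of a gene on 1 array, with filled points for high light (HL), open points for normal light (NL) and a line at the mean of the 4 replicates. CHS, CHI, F3H and F3'H have their highest group mean in oastlB HL, and MYB11 and MYB12 have the smallest ranges of group means; each panel has its own vertical scale.

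Part of the pathway was higher in HL than in NL in cyp20-3, oastlB and WT, and part of it was lower in 2cysprx. In cyp20-3, 3 of the 10 genes rose (CHS, F3H and MYB111) and 0 fell, with 8.83% of all genes called higher. In oastlB, 6 rose (CHS, CHI, F3H, F3'H, UGT78D2 and MYB111) and 0 fell, with 7.9% of all genes called higher. In 2cysprx, 3 fell (CHS, CHI and FLS1) and 0 rose, where 4.08% of all genes were called lower. With limma run on the 2cysprx arrays alone, 1 of the 10 was called. None of the 10 was called in serat2;1 by limma, where 11.4% of all genes were called in either direction. This is near that share and is not a result about the 10, of which 1 had an unadjusted p under 0.05. In WT, 4 rose (CHS, FLS1, UGT78D1 and MYB111) and 0 fell, where 10.3% of all genes were called higher. The median log2 difference of the 10 genes was 0.38 in cyp20-3, 0.69 in oastlB, -0.15 in 2cysprx, -0.08 in serat2;1 and 0.50 in WT, while the median of all genes lay between -0.03 and -0.0032 in these responses. The 4 HL values lay wholly above the 4 NL values for 4 of the 10 genes in cyp20-3 (10.5% of all genes), 5 in oastlB (8.36%) and 4 in WT (11.3%), and wholly below them for 1, FLS1, in 2cysprx (6.17%) and in serat2;1 (8.02%). In whole shoots, fewer cells of a type and less RNA per cell cannot be told apart. Epidermis markers moved with light as well, 1 of 4 being called higher in 2cysprx and oastlB and 2 of 4 in cyp20-3, serat2;1 and WT, with array means of 8.50 to 8.91 in HL and 8.34 to 8.68 in NL. Single green leaf markers moved too. RCA was called higher in HL in 2cysprx (0.30), oastlB (0.31), serat2;1 (0.26) and WT (0.21). GAPA1 was called higher in 2cysprx (0.43) and serat2;1 (0.36), and LHCB1.3 lower in cyp20-3 (-0.29). RBCS1A read 13.8 in all HL groups with an SD of 0. GAPA1 was also called higher in 2cysprx HL than in WT HL (0.41). The part of these markers in the result was not tested. Nor was that of the hour of harvest, which the sources used here do not state for each group.

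**Figure D2:**
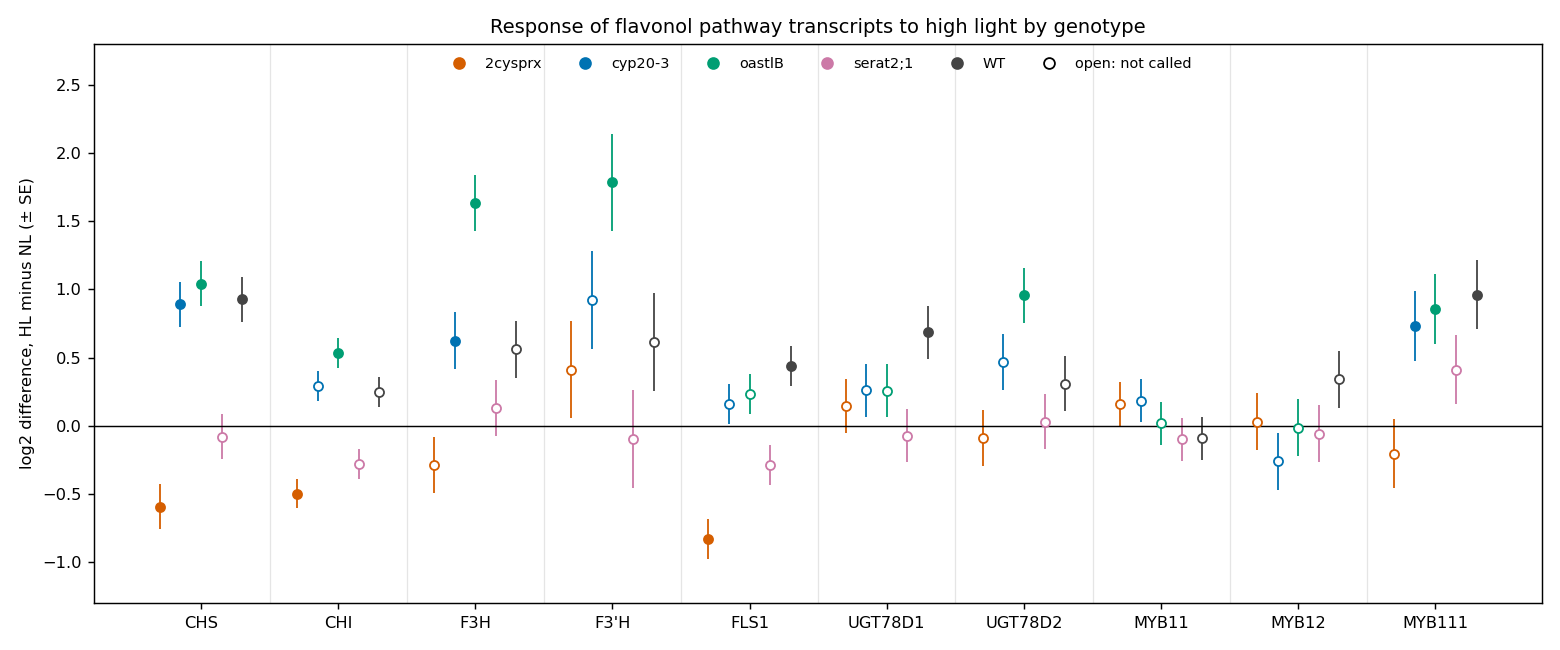
Points give the log2 difference, HL minus NL, of each gene in each genotype, and bars the standard error of the limma fit. Filled points were called at an adjusted p under 0.05, and the 2cysprx points of CHS, CHI and FLS1 lie below 0 while those of CHS lie near 1 in cyp20-3, oastlB and WT.

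The size of the light response was then compared with that of WT, gene by gene. In 2cysprx the response was lower for 4 of the 10 genes (CHS, CHI, FLS1 and MYB111) and higher for 0, against 3.54% of all genes called lower. In serat2;1 it was lower for CHS alone, against 1.29% of all genes called lower. In oastlB it was higher for F3H alone, against 1.16% of all genes called higher. In cyp20-3 no response of the 10 differed from WT by limma, where 0.855% of all genes did and 1 of the 10 had an unadjusted p under 0.05. These 4 comparisons share the 8 WT arrays.

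Mutant lines already differed from WT in normal light. In 2cysprx NL, 4 of the 10 genes were higher than in WT NL (CHS, CHI, F3H and FLS1) and 0 lower, against 5.59% of all genes called higher. In serat2;1 NL, 3 were higher (CHS, CHI and FLS1), against 1.6% of all genes. In oastlB NL, FLS1 was higher, against 2.15% of all genes. In cyp20-3 NL none was called by limma, 3 had an unadjusted p under 0.05, and only 0.0467% of all genes were called. All 4 genes called in 2cysprx NL had values wholly above those of WT NL, and so did 4 genes in serat2;1 NL (the 3 called and F3H), where 6.62% and 4.6% of all genes did. When limma was run on the 2 groups compared alone, 2 of the genes were called in 2cysprx NL (CHS and FLS1) and 0 in serat2;1 NL, where the adjusted p of CHS was 0.0902. In oastlB HL, 3 were higher than in WT HL (CHS, CHI and F3H), against 0.449% of all genes called higher, and 5 had values wholly above WT HL (also F3'H and FLS1), as 3.97% of all genes did. None was called in 2cysprx HL, cyp20-3 HL or serat2;1 HL, where limma called 2.21%, 2.24% and 0.956% of all genes and where 2, 1 and 1 of the 10 had an unadjusted p under 0.05. Without the doubtful array, CHS was lower in 2cysprx HL than in WT HL (-0.73, limma adjusted p = 0.00544). The comparisons in each light share the 4 WT arrays of that light.

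**Figure D3:**
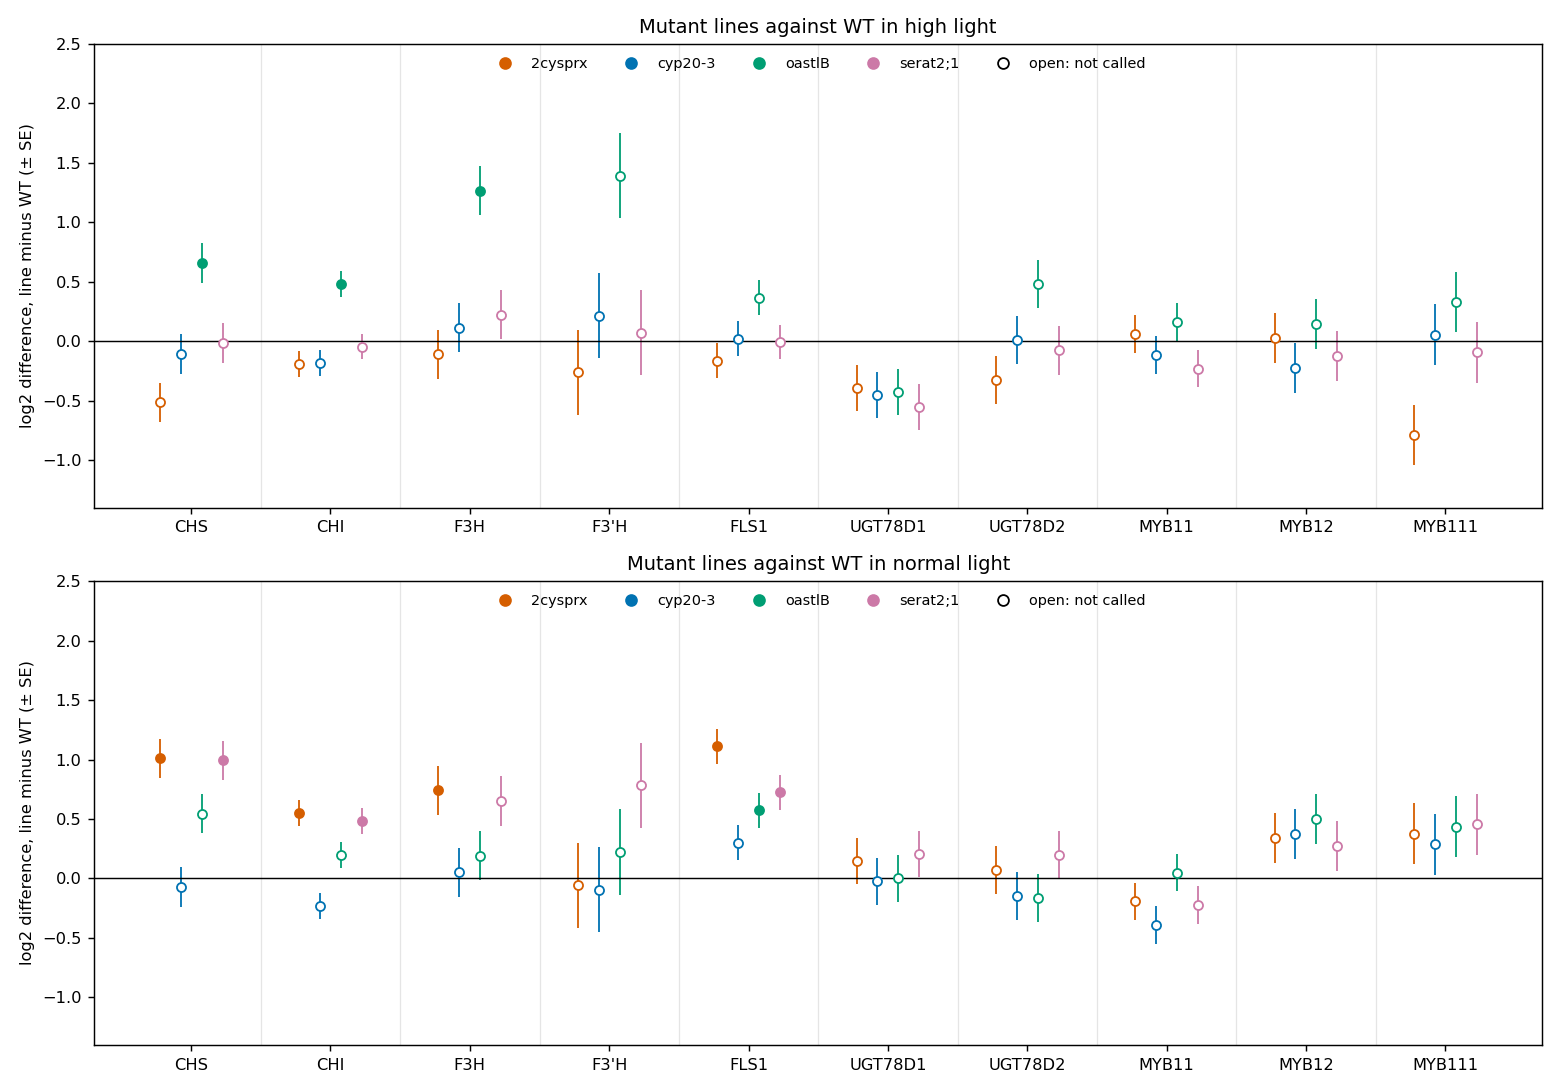
Points give the log2 difference, line minus WT, in high light (top) and normal light (bottom), with bars for the standard error of the limma fit. Filled points were called at an adjusted p under 0.05: CHS, CHI and F3H of oastlB in high light, and CHS, CHI, F3H and FLS1 of 2cysprx, CHS, CHI and FLS1 of serat2;1 and FLS1 of oastlB in normal light.

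Transcripts of the clock genes PRR9 and TOC1 stood apart in 2cysprx NL and serat2;1 NL as well, and TOC1 in oastlB NL. They belong to a list of 4 genes (CCA1, PRR9, TOC1 and FKF1) that was added after the data had been seen. CCA1, FKF1 and PRR9 in oastlB NL are not described here, so the values below do not show whether the list moved together. Relative to WT NL, the morning gene PRR9 was higher in 2cysprx NL (1.34) and serat2;1 NL (1.2), at 0.02 in cyp20-3 NL, and the evening gene TOC1 was lower in 2cysprx NL (-0.78), serat2;1 NL (-0.68) and oastlB NL (-0.56), at 0.07 in cyp20-3 NL. In the WT light response PRR9 rose by 2.5 and TOC1 fell by 0.98. The sources used here do not state the hour of harvest of each group, and the part of such differences in the flavonol results was not tested.

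CHS, the entry enzyme of the pathway, was lower in HL than in NL in 2cysprx, and higher in cyp20-3, oastlB and WT. It read 8.10, 8.98, 8.17 and 8.07 on the 2cysprx HL arrays, against 8.74, 9.34, 8.82 and 8.81 on the 2cysprx NL arrays. Replicate 2 was high in both lights, and without it the HL values all lay below the NL values. CHS fell by 0.60 ± 0.17 (SE) in 2cysprx HL (1.51-fold lower, limma adjusted p = 0.0176), and by 0.81 without the doubtful HL array (limma adjusted p = 0.000554). This call was lost when 2cysprx HL replicate 1, 3 or 4 or 2cysprx NL replicate 2 was left out, with a highest adjusted p = 0.103, and when limma was run on the 2cysprx arrays alone (adjusted p = 0.184). The response differed from that of WT by -1.52 ± 0.23 (limma adjusted p = 6.64e-05), and by -1.74 without the doubtful array (adjusted p = 4.44e-06).

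In cyp20-3, CHS read 8.54, 8.92, 8.77 and 8.71 in HL, against 7.90, 7.90, 7.85 and 7.72 in NL. In oastlB it read 9.26, 9.32, 9.58 and 9.85 in HL, against 8.65, 8.33, 8.55 and 8.30 in NL. The groups did not overlap in either line, and CHS rose by 0.89 ± 0.17 in cyp20-3 (1.85-fold, limma adjusted p = 0.000139) and by 1.04 ± 0.17 in oastlB (2.06-fold, limma adjusted p = 1.36e-05). On the WT arrays it read 8.91, 8.89, 8.66 and 8.92 in HL, against 8.34, 7.69, 7.71 and 7.92 in NL. All 4 WT HL values exceeded all 4 WT NL values, with means of 8.84 ± 0.12 and 7.92 ± 0.30 (SD, n = 4 each). CHS rose by 0.93 ± 0.17 in WT (1.90-fold, limma adjusted p = 7.07e-05). The calls in cyp20-3, oastlB and WT held when any 1 array was left out and under every alternative setting run.

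The level of CHS in 2cysprx NL, 8.93 ± 0.28, was 1.01 ± 0.17 above that in WT NL (2.01-fold, limma adjusted p = 6.15e-05), and the 4 against 4 values did not overlap. In serat2;1 it read 8.96, 8.73, 8.52 and 9.10 in HL, against 8.85, 8.95, 8.91 and 8.92 in NL. The lights overlapped, with a difference of -0.08 ± 0.17 (limma adjusted p = 0.832). The NL values lay 0.99 ± 0.17 above those of WT NL (1.99-fold, limma adjusted p = 0.00063), without overlap, and the light response was lower than in WT by -1.01 ± 0.23 (limma adjusted p = 0.0175). In oastlB HL, CHS was 0.66 ± 0.17 above WT HL (1.58-fold, limma adjusted p = 0.0461), a call that was lost in 7 of the 8 fits that left out 1 array, with adjusted p up to 0.198. Over the 10 groups, CHS was highest in oastlB HL and lowest in cyp20-3 NL, a 3.15-fold range of group means, and all neighbours in that order overlapped in their 4 values.

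CHI, which closes a ring in the chalcone made by CHS, moved less. On the oastlB arrays it read 7.87, 7.76, 7.83 and 8.09 in HL, against 7.40, 7.25, 7.55 and 7.21 in NL. Every HL value exceeded every NL value, and CHI rose by 0.53 ± 0.11 in oastlB HL (1.45-fold, limma adjusted p = 0.000471). In 2cysprx it read 7.06, 7.49, 7.12 and 7.17 in HL, against 7.58, 8.02, 7.48 and 7.75 in NL. The HL values were lower except for replicate 2, which just reached the lowest NL value, and CHI fell by 0.50 ± 0.11 (1.41-fold lower, limma adjusted p = 0.00234), or by 0.59 without the doubtful array (adjusted p = 0.000697). When limma was run on the 2cysprx arrays alone, its adjusted p was 0.1002. CHI averaged 7.22 ± 0.09 in HL and 6.93 ± 0.13 in NL in cyp20-3, without overlap, and 7.36 ± 0.13 in HL and 7.64 ± 0.12 in NL on the serat2;1 arrays (SD, n = 4 each), and neither difference was called (0.29 and -0.28, limma adjusted p = 0.0602 and 0.0922). The WT values were 7.40 ± 0.15 in HL and 7.16 ± 0.10 in NL (SD, n = 4 each), and this difference of 0.25 ± 0.11 was not called (limma adjusted p = 0.116), although the arrays did not overlap. The response in 2cysprx was lower than in WT by -0.74 ± 0.15 (limma adjusted p = 0.00208), and by -0.84 without the doubtful array (adjusted p = 0.000717).

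In normal light CHI was 0.55 ± 0.11 higher in 2cysprx than in WT (1.47-fold, limma adjusted p = 0.00065) and 0.48 ± 0.11 higher in the serat2;1 arrays (1.40-fold, limma adjusted p = 0.0116), each without overlap. In high light it was 0.48 ± 0.11 higher in oastlB than in WT (1.40-fold, limma adjusted p = 0.0237), again without overlap. That last call was lost without WT HL replicate 3 or 4 or oastlB HL replicate 4, with adjusted p up to 0.115. The groups ran from oastlB HL at the top to cyp20-3 NL at the bottom, over a 1.95-fold range.

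F3H, which hydroxylates the flavanone that CHI makes, and F3'H stood out in oastlB HL. F3H read 7.14, 7.10, 7.50 and 7.77 in oastlB HL, against 6.04, 5.61, 5.77 and 5.54 in oastlB NL. It rose by 1.64 ± 0.21 (3.11-fold, limma adjusted p = 3.02e-07), and the oastlB HL values also lay above all values of the other 9 groups. The light response of F3H was larger in oastlB than in WT by 1.08 ± 0.29 (limma adjusted p = 0.0374), which was lost in 10 of the 16 fits that left out 1 array, with adjusted p up to 0.0982. Against WT HL, F3H was 1.27 ± 0.21 higher in oastlB HL (2.41-fold, limma adjusted p = 0.00139), a call that held in every fit run.

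In cyp20-3, F3H read 5.94, 6.44, 6.18 and 6.34 in HL, against 5.55, 5.71, 5.60 and 5.54 in NL. It rose by 0.62 ± 0.21 (1.54-fold, limma adjusted p = 0.0313) with no overlap, but 6 of the 8 fits without 1 array lost the call, with adjusted p up to 0.0995. In 2cysprx, F3H read 5.79, 6.64, 5.82 and 5.74 in HL, against 6.08, 6.88, 6.01 and 6.19 in NL. Replicate 2 was again the highest in both lights, and the difference of -0.29 ± 0.21 was not called (limma adjusted p = 0.483). Without the doubtful array it was -0.50 (adjusted p = 0.149), and the response then differed from that of WT by -1.06 (adjusted p = 0.0174), against -0.85 with it (limma adjusted p = 0.0815). In NL, F3H was 0.74 ± 0.21 higher in 2cysprx than in WT (1.67-fold, limma adjusted p = 0.0161), a call lost without 2cysprx NL replicate 2 or WT NL replicate 2, with adjusted p up to 0.12. On the serat2;1 arrays F3H read 6.73, 6.08, 5.78 and 6.74 in HL, against 5.97, 6.45, 6.25 and 6.13 in NL. These lights overlapped (0.13 ± 0.21, limma adjusted p = 0.77). In WT, F3H read 6.25, 6.34, 5.86 and 5.99 in HL, against 5.87, 5.31, 5.53 and 5.48 in NL. The WT difference of 0.56 ± 0.21 just missed the threshold (limma adjusted p = 0.052), and it passed under 5 of the 7 alternative settings.

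F3'H read 5.63, 5.93, 6.41 and 6.97 in oastlB HL, against 4.52, 4.17, 4.95 and 4.15 in oastlB NL. It rose by 1.78 ± 0.36 (3.44-fold, limma adjusted p = 0.000368), in value the largest light response among the 10 genes and 5 genotypes, and the call held in every fit run. In cyp20-3 it read 4.97, 5.22, 4.84 and 5.20 in HL, against 3.88, 4.64, 3.95 and 4.07 in NL. These groups did not overlap, yet the difference of 0.92 ± 0.36 was not called (limma adjusted p = 0.0719).

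The replicates of F3'H spread more than those of the other 9 genes, with a pooled SD within groups of 0.53. In 2cysprx HL it read 6.04 on replicate 2, while the other 3 arrays read 4.09, 4.43 and 3.76, against 4.52, 4.40, 4.22 and 3.54 in 2cysprx NL. The difference of 0.41 ± 0.36 (limma adjusted p = 0.588) changed to -0.08 without that array (adjusted p = 0.943), so that F3'H shows no direction in this line. On the serat2;1 arrays it read 5.22, 4.75, 4.26 and 5.43 in HL, against 4.28, 4.69, 5.32 and 5.74 in NL, and these lights overlapped throughout. In WT it read 4.81, 4.94, 5.01 and 4.62 in HL, against 5.0, 3.94, 3.83 and 4.15 in NL. WT NL replicate 1 lay within the HL values, and the difference of 0.61 ± 0.36 was not called (limma adjusted p = 0.255). Against WT HL, oastlB HL was 1.39 ± 0.36 higher without overlap (2.62-fold), but just outside the threshold (limma adjusted p = 0.0509). F3H and F3'H were the members in which 1 pair of neighbours in the order of group means did not overlap, namely oastlB HL and the group next to it. For F3'H the oastlB HL values still overlapped those of groups further down the order, since serat2;1 NL reached 5.74 and 2cysprx HL 6.04. The ranges of group means were 3.55-fold for F3H and 4.29-fold for F3'H.

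FLS1, which catalyses the step specific to flavonols, was highest in 2cysprx NL and not in oastlB HL. It read 4.81, 5.10, 4.64 and 4.84 in 2cysprx HL, against 5.72, 6.06, 5.29 and 5.65 in 2cysprx NL. All HL values lay below all NL values, and FLS1 fell by 0.83 ± 0.15 (1.78-fold lower, limma adjusted p = 0.000187), or by 0.92 without the doubtful array (adjusted p = 0.000176). The response in 2cysprx was lower than that in WT by -1.28 ± 0.21 (limma adjusted p = 0.000131), called in every fit run, and by -1.36 without the doubtful array.

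FLS1 was not called in light in the other lines, in 2 of which CHS rose. In oastlB it read 5.37, 5.20, 5.25 and 5.69 in HL, against 5.38, 5.0, 5.03 and 5.17 in NL. The groups overlapped, and the difference of 0.24 ± 0.15 was not called (limma adjusted p = 0.335). In cyp20-3 it read 4.79, 5.13, 5.15 and 5.06 in HL, against 4.92, 4.83, 5.08 and 4.66 in NL, again with overlap (0.16 ± 0.15, limma adjusted p = 0.516). The serat2;1 arrays read 5.08, 5.11, 5.03 and 4.80 in HL, against 5.14, 5.48, 5.26 and 5.30 in NL. Here every HL value was below every NL value, but the difference of -0.29 ± 0.15 was not called (limma adjusted p = 0.227). In WT it read 4.99, 5.14, 4.95 and 4.97 in HL, against 5.0, 4.62, 4.16 and 4.5 in NL. WT NL replicate 1 overlapped the HL values, and FLS1 rose by 0.44 ± 0.15 (1.36-fold, limma adjusted p = 0.0292). The call in WT was lost without WT HL replicate 2 or without WT NL replicate 3 or 4, with adjusted p up to 0.164.

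In normal light FLS1 was the member called in most lines. It was 1.11 ± 0.15 higher in 2cysprx NL than in WT NL (2.16-fold, limma adjusted p = 2.85e-06) and 0.72 ± 0.15 higher in serat2;1 NL (1.65-fold, limma adjusted p = 0.00467), both without overlap. In oastlB NL it was 0.57 ± 0.15 higher (1.49-fold, limma adjusted p = 0.021), with overlap at WT NL replicate 1. The oastlB call was lost without WT NL replicate 3 or 4 or oastlB NL replicate 1, with adjusted p up to 0.102. When limma was run on the 2 groups compared alone, the 2cysprx call held (adjusted p = 0.0272), while the serat2;1 and oastlB calls did not (adjusted p = 0.148 and 0.228). In cyp20-3 NL the difference from WT was 0.30 ± 0.15 (limma adjusted p = 0.535).

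Of the glycosyltransferases, UGT78D2, which attaches glucose, was called in light in oastlB, and UGT78D1, which attaches rhamnose to flavonols, in WT. UGT78D2 read 3.88, 3.31, 3.41 and 4.16 in oastlB HL, against 2.69, 2.63, 2.88 and 2.72 in oastlB NL. It rose by 0.96 ± 0.20 without overlap (1.94-fold, limma adjusted p = 0.000701), and the call held in every fit run. In the other 4 genotypes its differences ran between -0.09 in 2cysprx (-0.17 without the doubtful array) and 0.47 in cyp20-3, with no call. In the 4 mutant lines the light differences of UGT78D1 lay between -0.07 and 0.26 and were not called, and none of these responses was called different from WT. UGT78D1 read 3.41, 3.72, 3.52 and 3.40 in WT HL, against 2.45, 3.16, 2.67 and 3.04 in WT NL. All HL values exceeded the NL values, and UGT78D1 rose by 0.69 ± 0.20 (1.61-fold, limma adjusted p = 0.0103), but not without WT NL replicate 1 (adjusted p = 0.0603). Both genes stayed below the array median on all 40 arrays, and these low intensities limit what can be seen. UGT78D1 and UGT78D2 also have close relatives, and the sources used here do not state whether their probes distinguish them.

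Among the regulators, MYB111, the factor best known from cotyledons, was called higher in HL in oastlB, cyp20-3 and WT. In oastlB it read 4.86, 4.27, 5.01 and 5.19 in HL, against 4.10, 3.71, 3.70 and 4.40 in NL, and in cyp20-3 it read 3.95, 5.24, 4.48 and 4.56 in HL, against 3.64, 3.84, 4.18 and 3.66 in NL. In both lines 1 HL array overlapped the NL values. MYB111 rose by 0.86 ± 0.25 in oastlB (1.81-fold, limma adjusted p = 0.0165) and by 0.73 ± 0.25 in cyp20-3 (1.66-fold, limma adjusted p = 0.0422). Of the 8 fits without 1 array, 3 lost the oastlB call (adjusted p up to 0.0743) and 6 the cyp20-3 call (adjusted p up to 0.217).

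In 2cysprx, MYB111 read 3.71, 3.93, 3.06 and 4.16 in HL, against 3.94, 3.81, 3.66 and 4.27 in NL. The lights overlapped, with a difference of -0.20 ± 0.25 (limma adjusted p = 0.737), or -0.28 without the doubtful array (adjusted p = 0.677). The response was lower than in WT by -1.17 ± 0.36 (limma adjusted p = 0.0467), and by -1.24 without the doubtful array (adjusted p = 0.048). That call was lost in 11 of the 16 fits that left out 1 array, with adjusted p up to 0.131. In HL, MYB111 averaged 3.72 ± 0.48 in 2cysprx and 4.5 ± 0.29 in WT (SD, n = 4 each), which was not called (-0.79 ± 0.25, limma adjusted p = 0.107), nor was it without the doubtful array (-0.86, adjusted p = 0.112). On the serat2;1 arrays it read 4.49, 4.55, 4.83 and 3.76 in HL, against 4.06, 3.68, 3.85 and 4.39 in NL, a difference of 0.41 ± 0.25 that was not called (limma adjusted p = 0.351). On the WT arrays it read 4.10, 4.52, 4.64 and 4.75 in HL, against 3.68, 3.71, 3.77 and 3.01 in NL. These groups did not overlap, and MYB111 rose by 0.96 ± 0.25 in WT (1.95-fold, limma adjusted p = 0.00575), in every fit run.

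MYB12 and MYB11 were called in none of the 23 comparisons. MYB12, the factor best known from roots, lay between 2.26 and 3.42 on the 40 arrays, with its highest group mean in oastlB NL (3.02 ± 0.39) and its lowest in WT NL (2.52 ± 0.21). Its light differences ran between -0.26 in cyp20-3 and 0.34 in WT. MYB11 lay between 1.76 and 2.90, with its highest group mean in oastlB HL (2.55 ± 0.36), its lowest in cyp20-3 NL (2.09 ± 0.22) and light differences between -0.10 and 0.18. Ranges of their group means, 1.41-fold and 1.37-fold, were the smallest of the 10 genes, and both were below the array median on all 40 arrays. At these intensities and with 4 arrays a group, a change within the spread of the arrays was not detectable.

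The mutant lines were also set against each other in high light, where each pair shares its arrays with other pairs. Between 2cysprx HL and oastlB HL, 7 of the 10 genes were lower in 2cysprx, against 1.6% of all genes called lower. F3'H differed by -1.65 ± 0.36, F3H by -1.38 ± 0.21, CHS by -1.17 ± 0.17, MYB111 by -1.12 ± 0.25, UGT78D2 by -0.81 ± 0.20, CHI by -0.68 ± 0.11 and FLS1 by -0.53 ± 0.15 (limma adjusted p between 2.28e-05 and 0.0326). The count was 7 without the doubtful array as well, with F3'H at -2.14 and F3H at -1.59, and 4 without 2cysprx HL replicate 3. Between cyp20-3 HL and oastlB HL, 4 genes were lower in cyp20-3 (CHS, CHI, F3H and F3'H), against 2.55% of all genes, with F3H at -1.15 ± 0.21 (limma adjusted p = 0.000315). Between oastlB HL and serat2;1 HL, 3 were higher in oastlB (CHS, CHI and F3H), against 0.625% of all genes, with F3H at 1.04 ± 0.21 (limma adjusted p = 0.00517), and 1 was without oastlB HL replicate 4. MYB111 was lower in 2cysprx HL than in cyp20-3 HL by -0.84 ± 0.25 (limma adjusted p = 0.0467), where 2.79% of all genes were called lower, a call lost in 6 of 8 fits without 1 array (adjusted p up to 0.246), among them the fit without the doubtful array (-0.92, adjusted p = 0.0531). None of the 10 was called by limma between 2cysprx HL or cyp20-3 HL and serat2;1 HL, where 1.66% and 1.12% of all genes were called and 2 and 0 of the 10 had an unadjusted p under 0.05. Without the doubtful array CHS was lower in 2cysprx HL than in serat2;1 HL (-0.72, limma adjusted p = 0.00868) and than in cyp20-3 HL (-0.62, adjusted p = 0.0112).

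Over the 10 group means, several members followed CHS. Pearson's r with CHS was 0.91 for F3H, 0.90 for CHI, 0.83 for UGT78D2, 0.79 for F3'H and MYB111 and 0.75 for FLS1. It was 0.49 for UGT78D1, 0.34 for MYB12 and 0.20 for MYB11. These are descriptions over 10 points that share arrays, normalization and 5 genotypes, and oastlB HL is the highest point for most of these genes. FLS1 departed from the others in 2cysprx NL, where it was at its highest, and MYB111 lay at 3.92 ± 0.26 there, below the mean of every HL group except 2cysprx HL.

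**Figure D4:**
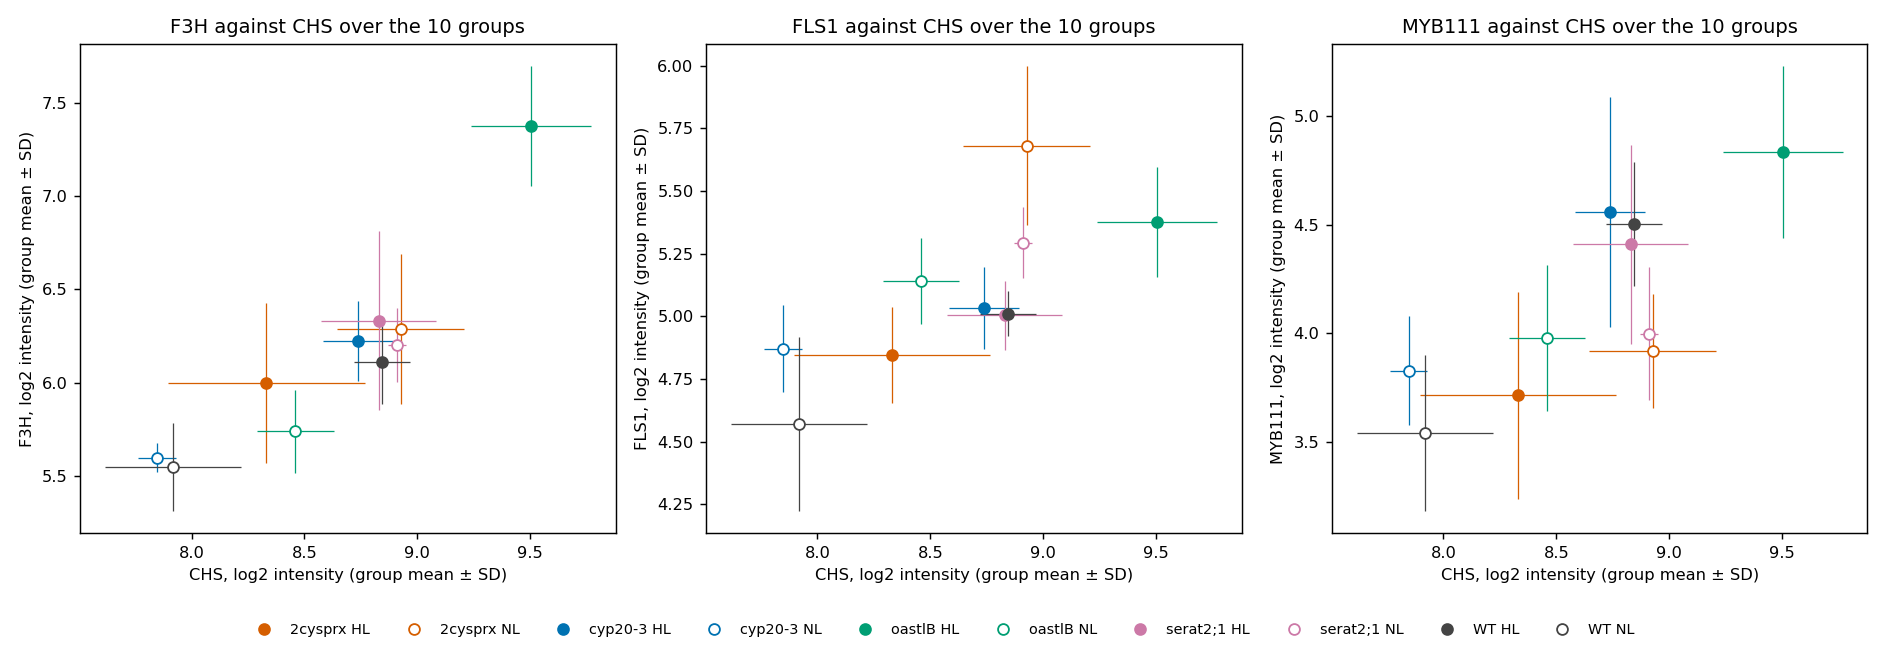
Each point is a group, placed by its mean log2 intensity of CHS (horizontal) and of F3H, FLS1 or MYB111 (vertical), with bars for the SD of 4 arrays; filled points are HL and open points NL. oastlB HL is the highest point for CHS, F3H and MYB111, while 2cysprx NL is the highest for FLS1.

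Genes that feed or complete the pathway were counted in the same light responses. These counts, and those of the lists described below, stand against the shares of all genes called higher and lower. These shares were 4.48% and 4.08% in 2cysprx, 8.83% and 8.99% in cyp20-3, and 7.9% and 8.25% in oastlB. They were 5.54% and 5.9% in serat2;1, and 10.3% and 9.58% in WT. A count of 1 in a list of 8 or 10 genes is not a result about that list. Of 8 phenylpropanoid genes (the PAL, C4H and 4CL genes that supply coumaroyl-CoA), 3 rose and 2 fell in oastlB in light, 1 rose and 1 fell in cyp20-3 and in serat2;1, 1 rose and 0 fell in 2cysprx (1 and 1 without the doubtful array), and 3 rose and 0 fell in WT. In WT they were 4CL3, a ligase linked to flavonoids, at 0.93 ± 0.12, C4H at 0.45 ± 0.11 and PAL1 at 0.35 ± 0.12. The response of 4CL3 in 2cysprx was lower than that in WT by -1.0 ± 0.17 (limma adjusted p = 0.000176), and that of PAL1 by -0.62 ± 0.17 (adjusted p = 0.0221). Without the doubtful array these were -1.09 and -0.66, both called. In NL, 4 of the 8 were higher in 2cysprx than in WT (PAL1, PAL2, C4H and 4CL3), 2 in serat2;1 (PAL1 and PAL2), 1 in oastlB (4CL3) and 0 in cyp20-3. Of all genes, 5.59%, 1.6% and 2.15% were called higher in the first 3 of these lines, and 0.0467% were called in either direction in cyp20-3.

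Among 10 further flavonol genes, CHIL and UGT89C1 rose in the genotypes in which CHS rose. CHIL, a non-catalytic relative of CHI that enhances chalcone synthesis, rose by 0.64 ± 0.19 in cyp20-3, 1.03 ± 0.19 in oastlB and 0.87 ± 0.19 in WT. UGT89C1, which attaches a second sugar, rose by 0.68 ± 0.14 in cyp20-3, 0.63 ± 0.14 in oastlB and 0.99 ± 0.14 in WT. In all, 0 of the 10 rose in 2cysprx and in serat2;1 and 3 each in cyp20-3, oastlB and WT, and 1 fell, OMT1 in serat2;1 (-0.45 ± 0.08). The response in 2cysprx was lower than in WT for 3 of them, UGT89C1 (-1.27 ± 0.20), CHIL (-1.03 ± 0.28) and RHM1, which makes the rhamnose donor (-0.42 ± 0.12), against 3.54% of all genes called lower. Without the doubtful array these 3 differences were -1.4, -1.23 and -0.48, all called. The serat2;1 response was lower for UGT89C1 (-0.85 ± 0.20) and OMT1 (-0.50 ± 0.12), against 1.29% of all genes called lower. FLS2, FLS3, FLS4 and FLS5, relatives of FLS1, were called in no comparison.

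The late anthocyanin branch, which shares CHS, CHI, F3H and F3'H with the flavonols, had its highest count in oastlB, where 12 of 16 genes and regulators rose, against 7.9% of all genes, and 0 fell. UF3GT was highest at 1.95 ± 0.39, followed by GSTF12 at 1.93 ± 0.27 and the regulator PAP1 at 1.89 ± 0.21. In cyp20-3 3 of 16 rose, PAP1 (1.28 ± 0.21), UF3GT (1.19 ± 0.39) and 3AT1 (0.99 ± 0.27), and in WT 2 of 16 rose, PAP1 (1.17 ± 0.21) and GSTF12 (0.99 ± 0.27), a count near the 10.3% of all genes called higher in WT. In 2cysprx 0 of 16 were called, with PAP1 at 0.13 ± 0.21, and the PAP1 response was lower than in WT by -1.03 ± 0.29 (limma adjusted p = 0.0252). The 2cysprx counts of this branch turned on the doubtful array. Without it, 5 of 16 fell in 2cysprx in light (DFR, LDOX, UGT75C1, 5MAT and 3AT1), and the response was lower than in WT for 8 of 16, against 1 with it, with PAP1 at -1.15 (limma adjusted p = 0.0167). Against WT HL, 7 of 16 were lower in 2cysprx HL without it and 1 with it. With the array kept, 4.08% of all genes were called lower in 2cysprx in light and 3.54% in the response against WT. Against WT HL, 2.21% were called in either direction. The shares of all genes without the array are not given here. On the serat2;1 arrays 0 rose and 1 fell, TTG1 (-0.49 ± 0.17), and PAP1 stood at 0.52 ± 0.21 without a call. No member of this branch differed in its light response between oastlB and WT by limma (0 of 16), although 4 of 16 were higher in oastlB HL than in WT HL, against 0.449% of all genes, with DFR at 1.62 ± 0.37.

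Of 8 repressors, MYBL2, a repressor of flavonoid genes, fell in light in cyp20-3 (-0.69 ± 0.13), oastlB (-0.98 ± 0.13), serat2;1 (-0.75 ± 0.13) and WT (-0.71 ± 0.13). In 2cysprx its difference was 0.21 ± 0.13 and not called, and the response was higher than in WT by 0.92 ± 0.19 (limma adjusted p = 0.00169). MYBL2 was 0.84 ± 0.13 higher in 2cysprx HL than in WT HL (limma adjusted p = 0.000201). Without the doubtful array these differences were 0.26 in light, 0.97 for the response and 0.90 in HL, with calls for the response and in HL. LBD39, a nitrate-related repressor of anthocyanin genes, rose in cyp20-3 (1.19 ± 0.17), serat2;1 (0.71 ± 0.17) and WT (1.32 ± 0.17), and in WT the repressors MYB32 (1.01) and MYB7 (0.95) rose as well. In all, 0 of 8 repressors rose and 0 fell in 2cysprx, 1 rose and 1 fell in cyp20-3, 1 and 2 in oastlB, 2 and 1 in serat2;1, and 4 and 1 in WT. The shares of all genes given above for these light responses apply here, and a count of 1 is not a result about the list.

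Of 10 light-signalling genes, HY5 and HYH, related factors that activate MYB12, MYB111 and CHS in other light treatments, rose in oastlB (1.08 ± 0.20 and 0.92 ± 0.21) and in WT (1.08 ± 0.20 and 1.23 ± 0.21). In the other 3 genotypes they were not called, with HY5 between 0.32 and 0.43 and HYH between 0.34 and 0.52 (0.27 and 0.54 in 2cysprx without the doubtful array), and none of their responses was called different from WT. CRY1, a blue light receptor, fell in oastlB (-0.46 ± 0.07), serat2;1 (-0.33 ± 0.07), cyp20-3 (-0.31 ± 0.07) and WT (-0.60 ± 0.07). In all, 1 of 10 rose and 1 fell in 2cysprx, 3 rose and 2 fell in cyp20-3, 4 and 2 in oastlB, 0 and 2 in serat2;1, and 3 and 2 in WT. Here too the shares of all genes given above apply, and a count of 1 is not a result about the list.

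The 5 genes whose group means were most like the mean pattern of the members were CHIL (r = 0.96), UF3GT (0.94), AT3G51238 (0.94), XTH32 (0.93) and GSTF12 (0.93). They came from 3944 genes outside the members whose group means had an SD of at least 0.25, compared over 10 groups. Ranked by Spearman's rho instead, 1 of these 5 was among a list cut at 5. In all, 7 genes reached the lowest rho of that list, and ties beyond the cut were not counted. AT3G51238 is annotated as a non-coding RNA whose span overlaps F3H in the TAIR10.1 annotation. The sources used here do not state the probes and strand behind either value, and the signals of F3H and AT3G51238 cannot be told apart. CHS overlaps AT5G13940 in the same annotation, with the same limit. MYB11 overlaps AT3G62615, which is not among the genes of the deposited table, and the part of AT3G62615 in the MYB11 signal was not tested.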

How the data were processed

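The deposited table holds log2 intensities per gene, which the authors made with RMA, per the submitters' processing notes; its version, the array type and the genome build behind the probe sets are unstated in the sources used here. The values ran from 0.767 to 14.3, all 27826 genes were kept with no filter, and columns were mapped to groups through the labels, which call the replicates biological. All 40 arrays entered a limma 3.58.1 model (R 4.3.3) with a mean for each of the 10 groups, 30 residual degrees of freedom and moderated variances. The 23 two-sided comparisons were 5 light responses, 8 of a line with WT, 4 of a line's light response with that of WT, and 6 between lines in HL. Benjamini-Hochberg adjustment ran over all genes within each comparison. "Every fit run" covers the fits that left out 1 array of the groups compared and the 7 alternative settings.

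The 10 genes and the lists around them were chosen with earlier results of these data known, and the clock genes after the values were seen. From each list up to 3 called genes with the largest differences are named, and MYBL2, LBD39, CRY1, CHIL and UGT89C1 were followed across genotypes after their values were seen. Likeness to the members was Pearson's r over group means. Overlaps of genes were looked up in a RefSeq gene table (TAIR10.1), and gene symbols follow common use. Array depth does not apply here, and 4 arrays a group limit the precision. Tested on simulated data for WT HL against WT NL over 27826 genes, the model recovered 85 of 100 genes changed by 1 on the log2 scale and 34 of 100 changed by 0.5, and called 5 unchanged genes. No other genes were changed there, and the noise was drawn independently for each gene and array. In the real comparison 5519 genes were called, so these recovery rates do not carry over to it. Correlations between pairs of arrays lay between 0.973 and 0.993, and no 2 arrays were identical.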

Additional observations from a re-analysis of the deposited data

Results flagged for a closer look

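In 6 of the 100 sets of 4 arrays (10 genes in 10 groups), the highest or lowest array stood apart from the other 3 by more than a Dixon test allows, where chance gives about 5%. CHS read 8.98 on 2cysprx HL replicate 2 (the others 8.07 to 8.17), and F3H read 6.64 on the same array (the others 5.74 to 5.82). CHS read 9.34 on 2cysprx NL replicate 2 (the others 8.74 to 8.82). That NL array also had the highest CHI, F3H and FLS1 of its group and the lowest limma array weight of the 40, 0.481. The weight was 0.541 for oastlB HL replicate 4, the highest array of its group for 7 of the 10 genes, and 1.19 for 2cysprx HL replicate 2. It was 0.599 for WT NL replicate 1, the highest array of its group for CHS, CHI, F3H, F3'H and FLS1. CHS read 8.66 on WT HL replicate 3 (the others 8.89 to 8.92). MYB111 read 3.01 on WT NL replicate 4 (the others 3.68 to 3.77), and MYB12 read 2.33 on cyp20-3 NL replicate 1 (the others 3.05 to 3.12).

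Of the 40 differences in light response between a line and WT, 6 were called by limma. In 2cysprx the response was lower by -1.52 for CHS, -0.74 for CHI, -1.28 for FLS1 and -1.17 for MYB111. In serat2;1 it was lower by -1.01 for CHS, and in oastlB it was higher by 1.08 for F3H. CHS averaged 8.91 in NL and 8.83 in HL on the serat2;1 arrays, and 7.92 and 8.84 in WT. All 6 differences use the WT NL arrays, as do the calls against WT in normal light.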

How the results depend on the processing

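Over 7 alternative settings and 23 comparisons, 139 of 161 counts of called genes stayed within 1.5 times the reported count, and no called gene changed direction. With limma run on only the groups compared, the count was 1 for 2cysprx light, 2 for 2cysprx NL against WT NL, 0 for oastlB NL and serat2;1 NL against WT NL, 1 for oastlB HL against WT HL, 0 for the oastlB response against that of WT, and, in HL, 0 for 2cysprx against cyp20-3, 3 for 2cysprx against oastlB and 0 for oastlB against serat2;1. Among genes at or above the median level, which left 5 members, it was 1 for serat2;1 light, 2 for oastlB NL against WT NL, 1 for 2cysprx HL against WT HL, 3 for the serat2;1 response against that of WT and 0 for 2cysprx against cyp20-3 in HL. Array weights gave 5 for cyp20-3 light, 2 for oastlB NL against WT NL and 2 for the serat2;1 response, and an intensity trend in the variances gave 5, 2 and 3 for the same comparisons. Cyclic loess normalization moved no count by that much. Nor did a further quantile normalization, but RMA had already equalised the distributions, so its counts could hardly move. Its 23 counts are among the 161 and say nothing about how far the results hold. Over all genes, same-numbered arrays did not deviate together (r between -0.11 and 0.12, with every r over 0.1 in 0 of 19 pairs of groups). Such an r cannot show whether same-numbered arrays share a batch that acts on few genes. CHS, CHI, F3H and FLS1 were highest on replicate 2 of 2cysprx in both lights. With the replicate number as a block the count was 2 for the serat2;1 response and 0 for 2cysprx against cyp20-3 in HL. All other counts were then within 1.5 times. Without 1 array at a time, the count ran between 1 and 4 for cyp20-3 light, 0 and 2 for oastlB NL, 0 and 1 for 2cysprx HL and 1 and 4 for oastlB HL against WT, 0 and 1 for the oastlB response and 1 and 2 for the serat2;1 response. In HL it ran between 0 and 1 for 2cysprx against cyp20-3, 4 and 7 against oastlB and 0 and 1 against serat2;1, and 1 and 4 for oastlB against serat2;1. In cyp20-3 light the count fell to 1 without cyp20-3 HL replicate 2. Except where an array, a group or dim genes were left out by construction, the cause was not tested. Dim signals limit UGT78D1, UGT78D2, MYB11 and MYB12, and part of F3'H and MYB111. RNA levels were measured, not flavonols or protein.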

Other observations

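The genes most like each MYB factor over the 10 group means were named in the same way. For MYB111 they were AT3G01820 (r = 0.97), ADK (0.94) and MSR1 (0.94), named by r among the 3944 genes whose group means had an SD of at least 0.25. For MYB11 they were QQS (0.85), AT3G43570 (0.78) and AT1G34060 (0.78), and for MYB12 AT2G12190 (0.78), AT3G30383 (0.75) and CYP705A23 (0.75). The group means of MYB11 and MYB12 spanned only 0.46 and 0.50, with pooled SDs within groups of 0.23 and 0.31 and no call. Genes named for these 2 factors are the best matches to patterns not told apart from the spread of the arrays. They do not show that the factors differ. By Spearman's rho, 1 of 3 was shared for MYB111, 2 of 3 for MYB11 and 1 of 3 for MYB12. MYB111 and the repressor MYBL2 ran opposite over the same 10 groups (r = -0.91), while CHS and MYBL2 had r = -0.54. These are descriptions over points that share arrays and normalization.

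UGT78D1 read lower in HL in all 4 mutant lines than in WT, with differences between -0.55 (serat2;1) and -0.39 (2cysprx) and no call by limma in any line. Without 2cysprx HL replicate 2 the difference in 2cysprx was -0.50, also not called. Its WT HL values, 3.40 to 3.72, enter all 4 comparisons.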
